A study of Mus musculus with 12 samples.

Results

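Ifitm1, Ifitm2 and Ifitm3 are the 3 members described here, out of 23472 genes in a table of read counts from mouse LT-HSCs (long-term haematopoietic stem cells, which renew the blood for life). They were chosen by name, for their high level in these cells and for a genotype direction unlike that of other interferon genes, so their levels and genotype differences are given as a description and without a test. All 3 passed the filter on low counts, as did 13184 genes in all. The library with the fewest reads of a member held 1210 reads, for Ifitm2.

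The study set LT-HSCs of mice that lose the kinase gene Jak1 against LT-HSCs of wt mice. Poly-A RNA of 12 libraries was sequenced: 6 were labelled Jak1 KO, from cre-positive C57BL/6 animals, and 6 were labelled wt, from cre-negative C57BL/6 animals. Both groups had received poly(I:C), a synthetic RNA duplex that triggers interferon production, in 4 doses, 4 to 6 weeks before the bone marrow was taken. The sample descriptions carry an MX tag in some names, but the labels do not state the cre driver or the deleted exons. Because only the labelled Jak1 KO animals carried cre, an effect of cre itself and an effect of losing Jak1 cannot be told apart. In each genotype, replicates 1 to 3 carry VD names and replicates 4 to 6 carry ZL names, and these name sets are treated as separate strata. Whether a group's libraries stem from different animals is not stated, and the p-values then cover only the spread among these samples, which may be technical.

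IFITM proteins are small proteins anchored in membranes. They are best known for holding back the entry of enveloped viruses at the point where viral and cellular membranes fuse. Type I and type II interferons induce their genes through receptors that signal by Janus kinases, among them JAK1, and by STAT transcription factors. A complex that holds IRF9 binds the interferon-stimulated response element (ISRE), and the gamma-activated site (GAS) is a further element of interferon-responsive promoters. IFITM genes are also known to be active in stem cells in the absence of infection.

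Total counts per library ranged from 8989965 to 28701855. The Jak1 count, the check of the targeted gene, averaged 422 ± 160 CPM in libraries labelled Jak1 KO and 373 ± 45.3 CPM in wt (SD, n = 6 each; CPM, counts divided by the scaled library size). Its log2 fold change was 0.18 (SE 0.20), so a gene-level count of all exons did not mark the deletion, and the direction of every difference below rests on the labels. The 10 LT-HSC markers, Procr, Hlf and Mecom among them, were detected in every library, with a summed level of 1561 to 3935 CPM in libraries labelled Jak1 KO and 2055 to 3942 CPM in wt. Of 8 erythroid genes, the globin genes Hba-a1, Hba-a2 and Hbb-b2 were at 0 counts throughout, but others were read. Epor ran from 13.9 to 41.5 CPM and Car1 from 2.85 to 41.0 CPM. The 8 genes summed to 29.9 to 81.6 CPM in libraries labelled Jak1 KO and 45.5 to 93.3 CPM in wt. Neutrophil genes differed by name set: 8 of them, Ifitm6 included, summed to 7.29 to 14.2 CPM in ZL libraries and 455 to 1311 CPM in VD libraries. Jak1 KO 4 stood furthest from the others in its trend of level on exon length. In Jak1 KO 4 the deviation of a gene from its set mean fell with exon length (Spearman correlation -0.52 across genes, which are not independent replicates), and the median gene with under 1000 bases of exon lay 0.87 above its set mean on the log2 scale. Other ZL libraries had weaker trends. In Jak1 KO 6 and wt 6 the sign was opposite (correlations 0.45 and 0.38, short-gene medians -0.46 and -0.29). The correlation was 0.22 in wt 4, -0.27 in wt 5 and -0.17 in Jak1 KO 5. The members are short genes, with 655 to 1094 bases of exon. The genotype differences are therefore also given without Jak1 KO 4 or relative to other short genes, and ranges with each library left out come at the end.

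The 3 members share 1 cluster on mouse chromosome 7 (coordinates of GRCm38, GENCODE vM21 annotation). Ifitm2 lies at chr7:140954837-140955987 on the minus strand, Ifitm1 at chr7:140967221-140969825 on the plus strand and Ifitm3 at chr7:141009586-141010770 on the minus strand. Ifitm5, a bone gene of the family, flanks the cluster on one side and Ifitm6 on the other, 68967 bases from end to end. Each member has 2 exons in its reference transcript and encodes a short protein, of 106 codons for Ifitm1, 144 for Ifitm2 and 137 for Ifitm3. The coding sequences of Ifitm2 and Ifitm3 were the most alike among the 3 pairs, identical at 77.1% of aligned positions, against 65.9% for Ifitm1 and Ifitm3 and 62.3% for Ifitm1 and Ifitm2. The longest stretch shared without a mismatch was 69 nucleotides between Ifitm2 and Ifitm3 and 64 between Ifitm1 and Ifitm3. Of the 629 windows of 50 nucleotides in the Ifitm3 transcript, 20 also occurred in Ifitm2 and 15 in Ifitm1. Reads that fall in those stretches cannot be assigned to 1 gene by sequence alone, so a small part of each count is uncertain.

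The promoter windows are shown because they differ in their matches to the ISRE and GAS motifs. Each sequence is the RefSeq window of GRCm38.p6, 5′ to 3′ on the strand of the gene, with 250 bases before the transcription start and 50 after it. The windows are chr7:140967826-140968125 (plus strand) for Ifitm1, chr7:140955912-140956211 (minus strand) for Ifitm2 and chr7:141010695-141010994 (minus strand) for Ifitm3. Capitals mark matches to the ISRE core GAAANNGAA or to the GAS motif TTCNNNGAA, both searched on both strands.
Ifitm1: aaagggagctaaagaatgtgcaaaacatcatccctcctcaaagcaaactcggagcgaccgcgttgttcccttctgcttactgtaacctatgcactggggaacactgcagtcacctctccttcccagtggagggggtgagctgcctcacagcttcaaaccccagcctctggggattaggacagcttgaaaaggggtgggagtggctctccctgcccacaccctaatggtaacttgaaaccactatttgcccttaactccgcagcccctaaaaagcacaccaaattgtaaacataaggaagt
Ifitm2: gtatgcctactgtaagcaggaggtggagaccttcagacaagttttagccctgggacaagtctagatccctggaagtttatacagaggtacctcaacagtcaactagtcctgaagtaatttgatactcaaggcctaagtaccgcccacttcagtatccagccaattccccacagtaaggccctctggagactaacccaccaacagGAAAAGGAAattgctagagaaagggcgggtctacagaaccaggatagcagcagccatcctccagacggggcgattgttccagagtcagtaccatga
Ifitm3: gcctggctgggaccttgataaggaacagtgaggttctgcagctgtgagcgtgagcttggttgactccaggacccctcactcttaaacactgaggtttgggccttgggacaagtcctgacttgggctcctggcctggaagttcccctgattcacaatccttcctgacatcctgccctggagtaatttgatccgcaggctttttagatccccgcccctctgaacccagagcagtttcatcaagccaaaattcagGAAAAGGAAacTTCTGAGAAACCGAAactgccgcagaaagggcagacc

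The Ifitm1 window held 0 matches to either motif. The Ifitm2 window held 1 ISRE core, GAAAAGGAA, at positions -46 to -38 from the start. The Ifitm3 window held the same letters, GAAAAGGAA, at positions 3 to 11 after the start, a second ISRE core, GAAACCGAA, at 20 to 28, and a GAS match, TTCTGAGAA, at 14 to 22 that overlaps the second core. Of 32851 promoter windows in the RefSeq table, 8.56% held an ISRE core and 8.30% a GAS match. Among 91 genes of a type I interferon list that had a window, 49 (53.8%) held an ISRE core and 15 (16.5%) a GAS match, against 9.76% and 9.55% of all genes. A match describes letters only, and no match says only that these letters are not in this window. The GENCODE annotation of Ifitm1 begins at 140967221, upstream of the Ifitm1 window, and the sequence before that start was not searched.

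Per kilobase of exon, all 3 members were among the most abundant transcripts of these stem cells. Mean levels over the 12 libraries were 526 RPKM for Ifitm3, 525 RPKM for Ifitm2 and 352 RPKM for Ifitm1 (RPKM, normalised CPM divided by kilobases of exon). These levels placed Ifitm3 at rank 24, Ifitm2 at rank 25 and Ifitm1 at rank 37 of 23113 genes with an exon length. Without Jak1 KO 4 the levels were 457 RPKM (rank 25), 433 RPKM (rank 27) and 290 RPKM (rank 43) for Ifitm3, Ifitm2 and Ifitm1. Their lowest rank in any single library was 49 for Ifitm2 and Ifitm3 and 88 for Ifitm1. By mean CPM, not divided by length, Ifitm3 was at rank 259, Ifitm2 at 273 and Ifitm1 at 226 of 23472 genes. Ranks per kilobase depend on the length used for every gene, here all annotated exons (median 4367.5 bases over tested genes). The level of Ifitm1 depends on its length: against its reference transcript of 736 bases in place of its 1094 bases of exon from 3 annotated transcripts, it was 524 RPKM. Whether the 3 levels differ was not tested. Between libraries, Ifitm3 alone ran from 217 to 1283 RPKM in libraries labelled Jak1 KO and from 337 to 928 RPKM in wt. With 1094 bases for Ifitm1, its RPKM over that of Ifitm3 within a library was 0.741 to 1.51 in Jak1 KO. In wt it was 0.432 to 0.709.

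Of 104 tested genes of the type I interferon list, only B2m, the light chain of MHC class I, had a higher mean RPKM than any member, at 2828 RPKM (rank 1 of the list). The next list genes all lay below Ifitm1: Ly6e, a lymphocyte surface antigen that limits virus entry, at 217 RPKM, Lgals9 (galectin 9) at 205 RPKM, Psme1, a proteasome activator subunit, at 126 RPKM and Lgals3bp at 107 RPKM. Psmb8, an immunoproteasome subunit, followed at 95.4 RPKM, Shisa5 at 86.1 RPKM and the GTPase gene Ifi47 at 79.9 RPKM. Counted by reads alone and not by length, 4 list genes had a higher mean CPM than Ifitm3 in wt libraries, and 6 had a higher one than Ifitm1 or Ifitm2. Ly6e, with 3784 bases of exon, was among them at 822 CPM in wt. The list genes were not recomputed by the length of a reference transcript, so their order per kilobase depends on the exon length used.

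**Figure D1:**
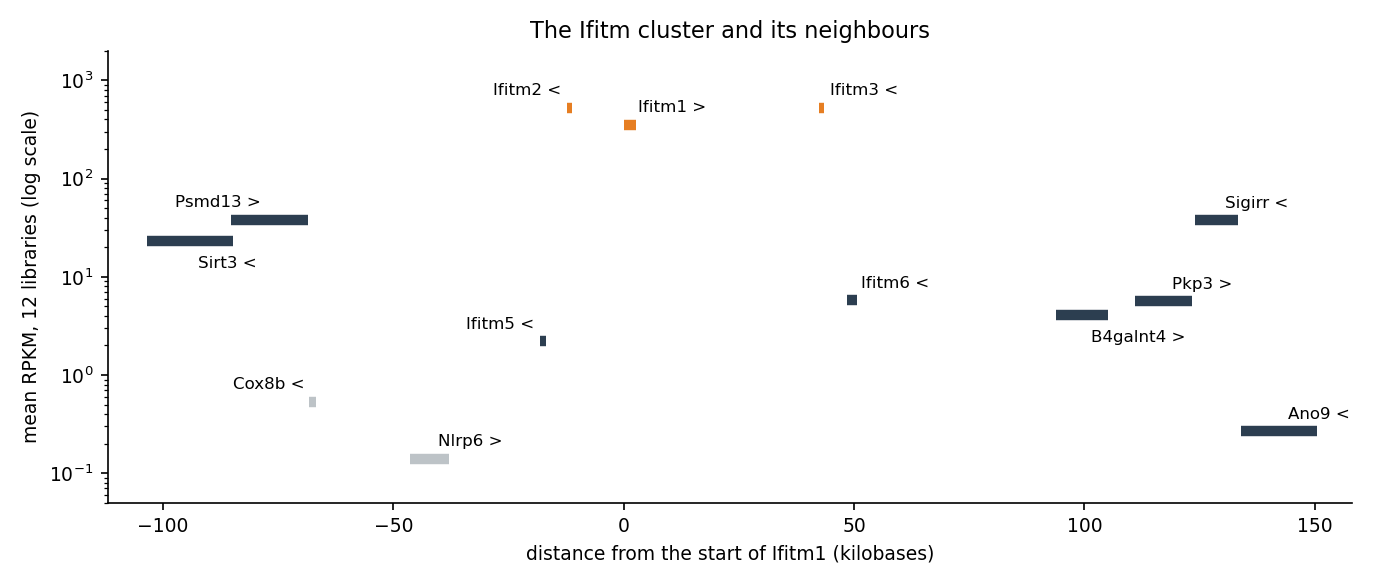
Mean level in RPKM (log scale, 12 libraries) of the genes of the Ifitm cluster and its neighbours in the table, against distance in kilobases from the start of Ifitm1. Orange bars are the 3 members at 352 to 526 RPKM, dark bars other tested genes, light bars genes under the filter on low counts; bar width is the annotated gene and the arrows > and < give the plus and minus strand.

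The high level was confined to the 3 members among the genes of the cluster plot. Ifitm5 averaged 1.66 CPM in libraries labelled Jak1 KO and 1.73 CPM in wt. Ifitm6, a gene of the same cluster, had 0 of 141716927 counts in the 6 ZL libraries, which allows up to 0.0212 CPM. In VD it was read at 6.95, 6.34 and 17.2 CPM in Jak1 KO 1 to 3 and at 8.81, 8.96 and 14.1 CPM in wt 1 to 3. It was the 1 gene of the table with at least 20 counts in every VD library and 0 in every ZL library. Jak1 KO 3 and wt 3 had the most Ifitm6 and the highest neutrophil sums, but Ifitm6 is itself part of that sum. The other VD libraries did not follow this order. Jak1 KO 1 and 2 had higher sums (632 and 735 CPM) than wt 1 and 2 (455 and 510 CPM) but less Ifitm6. Of the 8 flanking genes in the table, Sirt3, Psmd13, B4galnt4, Pkp3, Sigirr and Ano9 were tested and 0 were called by genotype, with log2 fold changes from -0.12 (Psmd13) to 0.39 (Ano9). Cox8b and Nlrp6 did not pass the filter.

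By genotype the 3 members did not share a direction. Ifitm1 was on average higher in libraries labelled Jak1 KO than in wt, Ifitm2 nearly level and Ifitm3 lower. Of the 3, 0 were called lower and 0 higher at an edgeR quasi-likelihood adjusted p under 0.05, where 0.432% of all tested genes were called lower and 0.00758% higher; the rule that chose the members used this contrast, so nothing is read from that count. The share of all tested genes whose groups do not overlap was not counted, so statements on overlap below only describe these libraries. In bulk RNA, fewer cells of a type and less RNA per cell cannot be told apart.

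Ifitm1 stood at 276, 217, 375, 1133.5, 549 and 300 CPM in Jak1 KO 1 to 6, against 201, 181, 261, 367, 439 and 328 CPM in wt 1 to 6. The groups overlapped: in ZL, 2 of 3 libraries labelled Jak1 KO lay above every wt library and 1 below, and in VD, 2 of 3 lay above and 1 between. The means were 475 ± 342 CPM in libraries labelled Jak1 KO and 296 ± 99.8 CPM in wt (SD, n = 6 each), a log2 fold change of 0.62 (SE 0.26). Within the sets it was 0.80 in ZL and 0.47 in VD, and 0.36 without Jak1 KO 4.

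In VD, the highest Ifitm1 of each genotype was in Jak1 KO 3 and wt 3. Those libraries also had the highest neutrophil sums, 1279 CPM in Jak1 KO 3 and 1311 CPM in wt 3, against 632 and 735 CPM in Jak1 KO 1 and 2 and 455 and 510 CPM in wt 1 and 2. The part of neutrophil RNA in the Ifitm1 level of VD libraries was not tested. In ZL, where the same 8 genes summed to 9.95 to 14.2 CPM in libraries labelled Jak1 KO and 7.29 to 11.1 CPM in wt, Ifitm1 averaged 661 ± 428 CPM in Jak1 KO and 378 ± 56.2 CPM in wt (SD, n = 3 each).

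Ifitm2 stood at 154, 147, 159, 1010.3, 455 and 343 CPM in Jak1 KO 1 to 6, against 188, 182, 196, 414, 471 and 410 CPM in wt 1 to 6. In VD the 3 libraries labelled Jak1 KO were lower than all 3 wt libraries, while in ZL 1 lay above every wt library, 1 below and 1 between them. The means were 378 ± 334 CPM in libraries labelled Jak1 KO and 310 ± 135 CPM in wt (SD, n = 6 each), a log2 fold change of 0.09 (SE 0.24). The sign of this value turned with the libraries used: it was 0.48 in ZL, -0.26 in VD and -0.18 without Jak1 KO 4.

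Ifitm3, the member with the strongest known antiviral action in mice, stood at 147, 156, 154, 870, 425 and 251 CPM in Jak1 KO 1 to 6, against 236, 237, 228, 475, 629 and 469 CPM in wt 1 to 6. Outside Jak1 KO 4, each library labelled Jak1 KO was lower than all wt libraries of its name set. The ZL means were 515 ± 319 CPM in libraries labelled Jak1 KO and 524 ± 90.7 CPM in wt, and the VD means were 152 ± 4.74 CPM in libraries labelled Jak1 KO and 234 ± 5.05 CPM in wt (SD, n = 3 each). The log2 fold change over all libraries was -0.32 (SE 0.24), with -0.03 in ZL, -0.58 in VD and -0.59 without Jak1 KO 4. Although not called in the fit of all libraries, Ifitm3 was past the threshold in VD alone, with limma-voom and with the exon length offset, a description here because this contrast chose the gene.

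**Figure D2:**
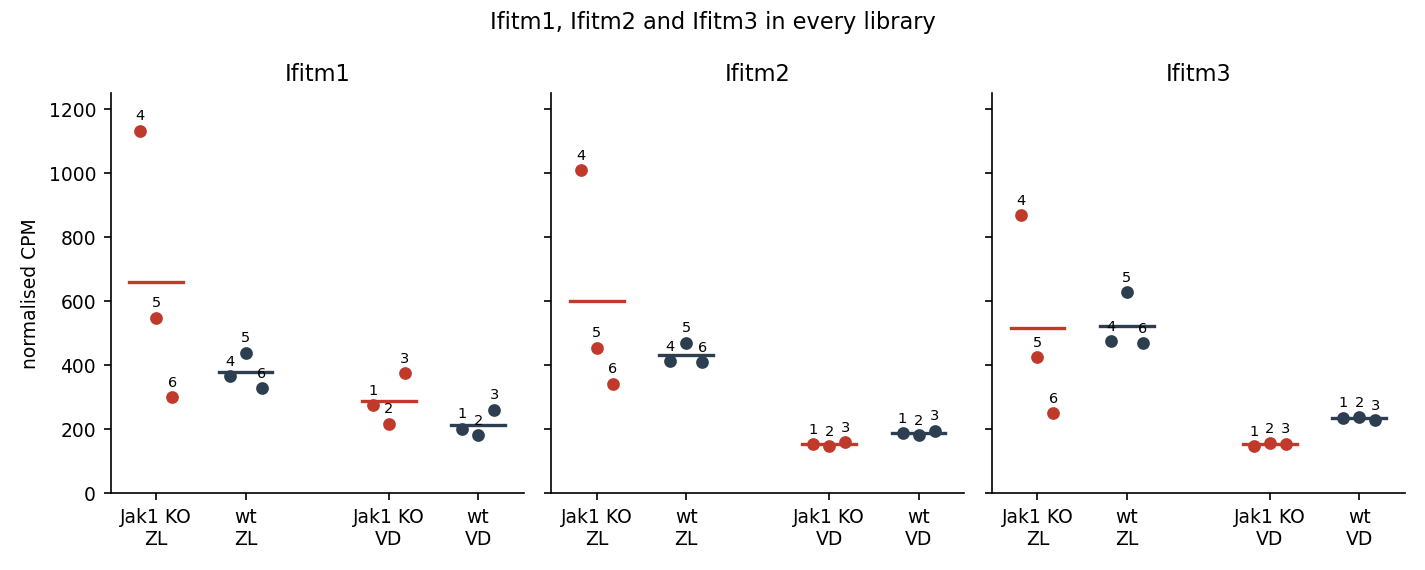
Normalised CPM of Ifitm1, Ifitm2 and Ifitm3 in each of the 12 libraries, by genotype and name set (Jak1 KO in red, wt in dark blue); points are libraries with their replicate number and lines are means of 3. Jak1 KO 4 is the highest library for each gene (1133.5, 1010.3 and 870 CPM), and in VD the 3 Jak1 KO libraries lie below the 3 wt libraries for Ifitm2 and Ifitm3.

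The genotype effect was then compared between the name sets. The members were chosen by their genotype direction, also within the sets, so this comparison may not be free of that choice. The interaction, the ZL effect minus the VD effect on the log2 scale, was 0.37 (SE 0.54) for Ifitm1, 0.78 (SE 0.44) for Ifitm2 and 0.60 (SE 0.47) for Ifitm3, each with an edgeR adjusted p of 0.975. A difference of the genotype effect between the sets was thus not detectable for any member with 3 libraries per group, and across all genes 0% were called (0 of 13184 by edgeR and by limma-voom, 1 by DESeq2, 182 at an unadjusted p under 0.05). The values rest on Jak1 KO 4: without it they were -0.27 for Ifitm1, 0.17 for Ifitm2 and -0.02 for Ifitm3.

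The level itself did differ between the name sets. Ifitm1 averaged 519 ± 314 CPM in ZL and 252 ± 70.3 CPM in VD, Ifitm2 517 ± 246 CPM in ZL and 171 ± 19.97 CPM in VD, and Ifitm3 520 ± 210 CPM in ZL and 193 ± 45.0 CPM in VD (SD, n = 6 each). All 3 were called higher in ZL, at a log2 fold change of 1.00 (SE 0.27, edgeR adjusted p = 0.00507) for Ifitm1, 1.58 (SE 0.24, adjusted p = 8.54e-05) for Ifitm2 and 1.46 (SE 0.25, adjusted p = 0.000198) for Ifitm3. The background of this contrast was wide, with 60.0% of all genes called in either direction and a median of 0.20 over all genes. Called higher in ZL were 4671 of 13184 tested genes, and 159 of the 393 with under 1000 bases of exon. The 393 tested genes with under 1000 bases of exon had a median of 0.58, and after an offset that takes out, library by library, the trend of level on exon length, the members' values were 0.20 for Ifitm1 (adjusted p = 0.294), 0.84 for Ifitm2 and 0.69 for Ifitm3. Ribosomal RNA from Rn45s took 0.511% to 0.950% of counts in ZL libraries and 14.8% to 22.6% in VD libraries, and its part in these differences was tested only by leaving the gene out, after which all 3 members stayed higher in ZL.

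The ratios of Ifitm1 and of Ifitm2 to Ifitm3 separated the genotypes over all 12 libraries, while the levels of Ifitm2 and Ifitm3 did so in VD alone. The share of other genes or gene pairs that separate in this way was not counted, so nothing is read from the separation itself. A ratio of counts within a library is free of library size and of a shift common to the 3 genes. The ratio of Ifitm1 to Ifitm3 reads was 1.88, 1.40, 2.43, 1.30, 1.29 and 1.20 in Jak1 KO 1 to 6, against 0.850, 0.763, 1.14, 0.772, 0.698 and 0.699 in wt 1 to 6. Every library labelled Jak1 KO had more Ifitm1 than Ifitm3 reads, and the lowest of them lay above the highest wt library, wt 3, the only wt library with a ratio over 1. The mean ratio was 1.58 ± 0.481 in libraries labelled Jak1 KO and 0.821 ± 0.168 in wt (SD, n = 6 each), or 1.89-fold as the mean of the log2 differences in ZL (0.81) and VD (1.03). This ratio was formed after the values were seen and from the contrast that chose the genes, so it carries no test.

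Jak1 KO 4 did not stand apart in this ratio, at 1.30 beside 1.29 and 1.20 in the other ZL libraries labelled Jak1 KO, and the log2 difference without it was 0.97. In ZL, where neutrophil genes were near 0, the ratio ran from 1.20 to 1.30 in libraries labelled Jak1 KO and from 0.698 to 0.772 in wt. In VD the highest ratio of each genotype was again in Jak1 KO 3 and wt 3. Ifitm2 to Ifitm3 also did not overlap, at 0.948 to 1.37 in libraries labelled Jak1 KO and 0.749 to 0.875 in wt, a 1.34-fold difference (0.42 on the log2 scale, 0.41 without Jak1 KO 4), whereas Ifitm1 to Ifitm2 overlapped, at 0.875 to 2.35 in libraries labelled Jak1 KO and 0.799 to 1.33 in wt.

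**Figure D3:**
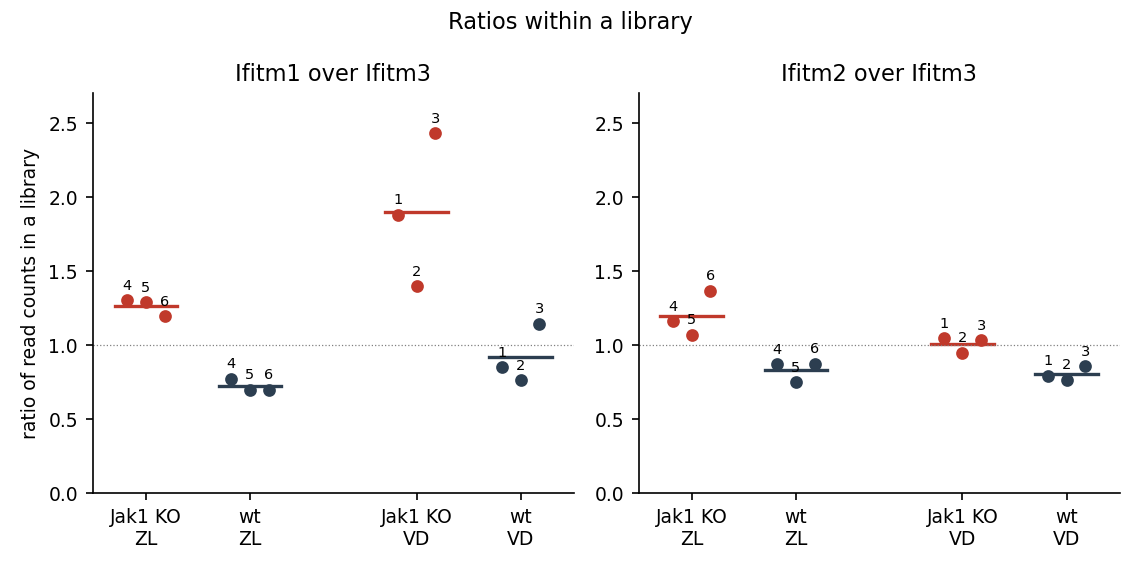
Ratio of read counts of Ifitm1 to Ifitm3 and of Ifitm2 to Ifitm3 within each library, by genotype and name set (points are libraries with their replicate number, lines are means of 3, the dotted line is a ratio of 1). For Ifitm1 to Ifitm3 the libraries labelled Jak1 KO lie at 1.20 to 2.43 and the wt libraries at 0.698 to 1.14.

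As a share of the reads of the 3 genes, Ifitm3 made up 27.4 ± 2.93% in libraries labelled Jak1 KO and 38.0 ± 2.58% in wt. Ifitm1 made up 42.3 ± 7.65% in Jak1 KO and 30.9 ± 3.92% in wt, and Ifitm2 30.3 ± 5.40% in Jak1 KO and 31.1 ± 2.01% in wt (SD, n = 6 each). Their sum was 1187 ± 954 CPM in libraries labelled Jak1 KO and 985 ± 399 CPM in wt, a difference within the spread between libraries. In VD, which lacks Jak1 KO 4, the sum was 595 ± 85.9 CPM in Jak1 KO and 637 ± 43.4 CPM in wt (SD, n = 3 each).

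Set against other short genes of the same library, the 3 members kept different directions. The quantity here is log2 CPM minus the set mean, less the median of the same quantity over 393 genes with under 1000 bases of exon. Ifitm3 lay at -0.35, -0.29, -0.20, -0.030, -0.29 and -0.49 in Jak1 KO 1 to 6, against 0.24, 0.23, 0.23, 0.22, 0.22 and 0.25 in wt 1 to 6. On this scale the groups did not overlap, Jak1 KO 4 no longer lay above wt, and the 6 wt libraries differed by an SD of 0.011. That SD leaves out the level difference between the name sets. Each set mean is taken over both genotypes, so the groups of a set fall on opposite sides of it on average. The scale was added after the values were seen and uses the contrast that chose the genes, so it carries no test. On average, labelled Jak1 KO minus wt was -0.51 for Ifitm3, -0.08 for Ifitm2 (0.03 in ZL and -0.19 in VD) and 0.41 for Ifitm1. The short genes as a whole had a genotype median of 0.15, with 0 of 393 called.

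**Figure D4:**
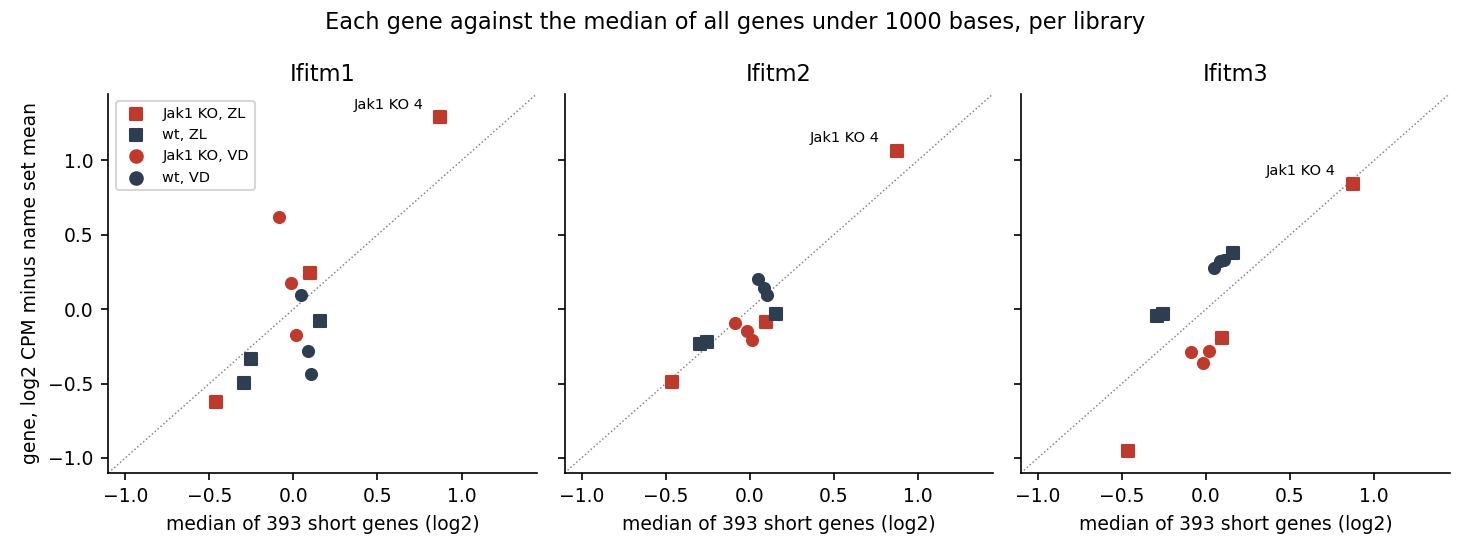
Log2 CPM minus the name set mean of each member (vertical axis) against the median of the same quantity over 393 genes with under 1000 bases of exon (horizontal axis), 1 point per library (Jak1 KO in red, wt in dark blue; squares ZL, circles VD); on the dotted line a member deviates as much as the median short gene. Jak1 KO 4 lies at 0.87 on the horizontal axis, and for Ifitm3 all 6 wt libraries lie 0.22 to 0.25 above the line and all 6 libraries labelled Jak1 KO below it.

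The other interferon genes were mostly lower in libraries labelled Jak1 KO. Of 115 genes of the type I interferon list without the members, 104 were tested: 26 fell, 0 rose and 78 did not pass the test, beside 0.432% of all tested genes called lower and 0.00758% called higher. The list median was -0.53 on the log2 scale, against -0.0060 over all genes, and 100 of the 104 values lay below 0. The mean log2 CPM of the list did not overlap between the groups, at 4.72 to 5.15 in libraries labelled Jak1 KO and 5.56 to 6.20 in wt. Jak1 KO 4, the library with the most Ifitm reads, lay at 4.91, inside its group.

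Among the list genes with the smallest p were the immunity-related GTPase genes Iigp1 and Igtp, the transcription factor genes Irf9 and Irf7, and Ifi44. Iigp1 fell to 15.1 ± 6.34 CPM in libraries labelled Jak1 KO, against 97.0 ± 47.6 CPM in wt (log2 fold change -2.63, SE 0.19, edgeR adjusted p = 2.4e-05). Irf9, whose product binds the ISRE, fell by 1.35 and Irf7, the amplifier of interferon production, by 2.06 on the log2 scale.

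Ifitm1 and Ifitm2 lay at the upper end of the range of these genes. The members were chosen for a direction unlike other interferon genes in this contrast, so their position is a description and not a finding. Of the 104 list genes, 0 had a higher genotype log2 fold change than Ifitm1, 2 a higher one than Ifitm2 and 29 a higher one than Ifitm3. The 4 list genes above 0 were Shisa5 at 0.22, Slfn1 at 0.13, Tor1aip1 at 0.08 and Psme1 at 0.0052, none of them called. Over all tested genes, 535 (4.06%) lay above Ifitm1. With the exon length offset the values of the members were 0.40, -0.13 and -0.55, the last near the list median of -0.50, and 0, 12 and 56 list genes lay above Ifitm1, Ifitm2 and Ifitm3.

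Abundant genes of the list differed widely among themselves by genotype. Of the 20 genes of the list with the highest mean RPKM, a set chosen after the values were seen, 3 fell (0.432% of all tested genes were called lower), 18 lay below 0 and the median was -0.33. B2m stood at -0.52 (SE 0.22), Psmb8 at -0.32 (SE 0.23) and Ly6e at -0.14 (SE 0.24), each not called. The 3 that fell were Igtp, by 1.39 on the log2 scale (edgeR adjusted p = 0.000369), Tap1, the peptide transporter of MHC class I, by 1.04 (adjusted p = 0.00169) and Ifi47 by 0.72 (adjusted p = 0.0455). Ifitm3, at -0.32, lay close to this median, and Ifitm1, at 0.62, above all 20. The choice of members used this contrast, so these positions are a description.

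**Figure D5:**
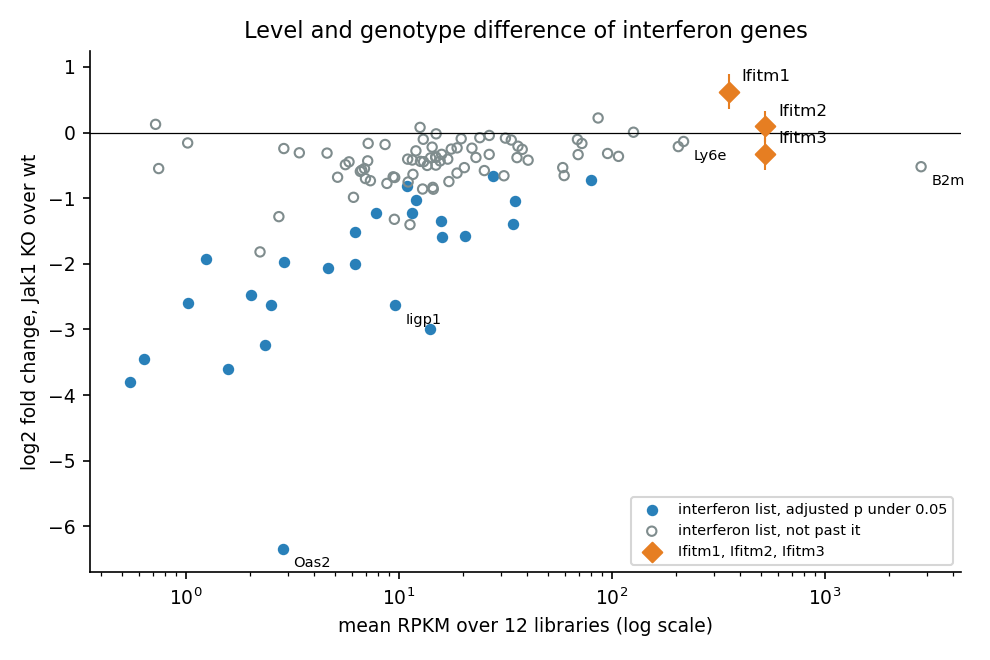
Genotype log2 fold change (Jak1 KO over wt) against mean RPKM (log scale, 12 libraries) of the 104 tested genes of the type I interferon list, filled where the edgeR adjusted p is under 0.05 (26 genes, all lower), and of Ifitm1, Ifitm2 and Ifitm3 (orange, bars are SE). The members lie at 352 to 526 RPKM and at 0.62, 0.09 and -0.32, and B2m is the only list gene to their right.

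Of 18 tested genes of interferon signalling, 3 fell, Irf9 and Usp18 (a brake on the type I receptor) among them, 0 rose and 15 did not pass the test, beside 0.432% of all genes called lower. The receptor chains had log2 fold changes of -0.14 for Ifnar1, 0.12 for Ifnar2, 0.11 for Ifngr1 and 0.28 for Ifngr2. The kinase gene Tyk2 stood at -0.31 and Stat2 at -0.68 (adjusted p = 0.945). Of 13 tested genes whose proteins are known to act on or with IFITM proteins, among them palmitoyltransferases and the ubiquitin ligase gene Nedd4, 0 were called. The smallest p among them were those of Zmpste24, a membrane protease, at -0.32 (SE 0.18) and Vcp, a membrane-extracting ATPase, at -0.26 (SE 0.19).

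In the wider family, Ifitm7, on chromosome 16, averaged 6.11 ± 3.47 CPM in libraries labelled Jak1 KO and 3.32 ± 1.29 CPM in wt (log2 fold change 0.89, SE 0.40, edgeR adjusted p = 0.935). Ifitm10 had 28 counts in ZL and 0 in VD and was not tested. Of the related dispanin genes, Prrt2 stood at 0.21 and Tmem91 at -0.09, neither called. Tmem233, Syndig1 and Syndig1l did not pass the filter and Tusc5 had 0 counts.

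Each member had its own closest companions among the 13183 other tested genes, by Pearson correlation of log2 CPM over the 12 libraries after the set means were removed, uncharacterised gene models passed over. These points share libraries and depth. The genotype difference, by which the members were chosen, was not removed and is part of each r. The values are a description. Ifitm3 moved most like B2m (r = 0.97), Psmb8 (0.96), Psmb9 (0.96), H2-T23 (0.96) and Tmsb4x (0.96); the first 4 are genes of MHC class I and of the immunoproteasome that supplies it with peptides. Without Jak1 KO 4 these 4 stayed at 0.97, 0.94, 0.95 and 0.94. Their genotype log2 fold changes were -0.52, -0.32, -0.42 and -0.36, of the same sign as that of Ifitm3. Ifitm2 moved most like Urod, Tmem222, Arpc4, Chst12 and Psmd4 (0.98 each), which were 0.88 to 0.94 without Jak1 KO 4. Ifitm1 moved most like Mapk1ip1 (0.97), Dkkl1 (0.95), Trp53i13 (0.95), Adi1 (0.95) and Ccdc28b (0.95), which were 0.86 to 0.95 without Jak1 KO 4. When the 5 closest genes were chosen again without that library, 3 of 5 were the same for Ifitm3, 1 of 5 for Ifitm2 and 2 of 5 for Ifitm1. The lowest r was -0.97 (Ezr) for Ifitm1, -0.99 (Rnf14) for Ifitm2 and -0.96 (Map4k2) for Ifitm3.

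Among themselves, Ifitm2 and Ifitm3 moved together with and without Jak1 KO 4 (r = 0.84 over 12 libraries, 0.91 over 11). Ifitm1 and Ifitm2 gave 0.76 with that library and 0.16 without it, and Ifitm1 and Ifitm3 gave 0.45 with it and -0.05 without it. The values of Ifitm1 with the other members thus depended on Jak1 KO 4. Within the sets, Ifitm1 gave 0.96 with Ifitm2 and 0.78 with Ifitm3 in ZL, and -0.35 and -0.62 in VD. The genotype difference is part of each of these values, so they only describe these libraries.

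The 5 megakaryocyte genes summed to 381 to 720 CPM in libraries labelled Jak1 KO and 772 to 1037 CPM in wt, and 1 of the 5, Itga2b, was called lower (log2 fold change -1.08, edgeR adjusted p = 0.0247), where 0.432% of all tested genes were. Pf4 stood at -1.24, Gp1bb at -1.12, Ppbp at -0.15 and Gp9 at -0.08, none of them called. Monocyte and macrophage genes summed to 10.9 to 33.8 CPM in libraries labelled Jak1 KO and 7.87 to 22.6 CPM in wt. Endothelial genes summed to 41.9 to 98.0 CPM in Jak1 KO and 29.6 to 58.4 CPM in wt, most of it from Emcn, with the endothelial cadherin gene Cdh5 at 0 to 0.603 CPM. The part of these cell types in the levels of the 3 members was not tested.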

How the data were processed

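The authors deposited raw read counts per gene, whole numbers without normalisation, for 12 poly-A libraries of LT-HSCs. Per the submitters' processing notes, STAR 2.3.0e, featureCounts and Subread were used with mm10. Which annotation was counted, and whether strand was used, no source here says, so reads of overlapping or antisense genes cannot be told apart. Reads that match several family members may have been lost or split by the authors' counting. A read-through gene model annotated over Ifitm2 and Ifitm5 is not a row of the table.

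Columns were matched to samples by their descriptions. In R 4.3.3, edgeR 4.0.16 kept genes by filterByExpr on genotype, scaled libraries by TMM and fitted genotype and name set (quasi-likelihood F test, Benjamini-Hochberg over 13184 genes, threshold 0.05). SE was taken as log2 fold change over the root of F. The interaction was a further term. Log2 CPM used a prior count of 2, and a group at 0 counts had a floor of 3 counts over the group, for counting error only. The edgeR test was checked on simulated data. RPKM is normalised CPM per kilobase of all annotated exons (GENCODE vM21; 21878 symbols matched directly and 1235 as older symbols), and Spearman correlations with exon length are over genes. The exon length offset took out each library's loess trend (span 0.5). Coding identity was taken from global alignments (Biopython 1.88).

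The members and lists were chosen with earlier results of these data known. Named were the members, the family lists, 5 flanking genes on each side where in the table, interferon genes by the smallest p, the highest RPKM or a value above 0, signalling genes by name, the 5 genes most and the 1 least like each member, and markers; not every gene under this rule is reported here. Depth was 8989965 to 28701855 counts, and no pair of libraries within a group and name set agreed within sampling noise (lowest chi-square per degree of freedom 14.3). Alternatives were other scalings, filters, DESeq2 1.42.0, limma-voom 3.58.1 with quality weights, Rn45s left out, the length offset, no set term, a replicate block, each set alone and each library left out; the ratio of Ifitm1 to Ifitm3 and levels relative to short genes were added after seeing the data.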

Additional observations from a re-analysis of the deposited data

Results flagged for a closer look

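Within groups of 6 libraries, the gap of the highest or lowest library to its neighbour was compared with the range of the group. It was taken in CPM for the 3 members and on the plain ratio of Ifitm1 to Ifitm3. The same comparison on the log2 scale was not made, and the marks depend on the scale. Chance alone marks about 1 group in 20. Each group of 6 pools the ZL and VD libraries, which differ in level, and 3 libraries per set are too few for the same comparison within a set. Jak1 KO 4 lay far from the other libraries labelled Jak1 KO for Ifitm1, at 1133.5 CPM (gap 0.638 of the range), and for Ifitm2, at 1010.3 CPM (0.644), both past Dixon's 95% critical value. For Ifitm3 the gap of the same library was 0.616, just short of that value. This library also had the strongest excess of short genes (median 0.87 on the log2 scale) and the lowest limma-voom weight, 0.165, and the part of that excess in its Ifitm levels was not tested beyond the values relative to short genes. In the ratio of Ifitm1 to Ifitm3, wt 3 lay above the other wt libraries at 1.14 (gap 0.659). It also had the highest neutrophil sum of the wt libraries, 1311 CPM.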

How the results depend on the processing

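Ifitm3 was called lower by genotype in VD alone (-0.58), with limma-voom (-0.60) and with the exon length offset (-0.55), and Ifitm1 and Ifitm2 under none of the alternatives. Ifitm1 stayed above 0 and Ifitm3 below 0 in each. Ifitm2 was below 0 in VD alone (-0.26), with limma-voom (-0.19), with the exon length offset (-0.13), relative to short genes with each gene centred over all 12 libraries (-0.09) and without Jak1 KO 4 (-0.18). With 1 library left out, the genotype values ran from 0.36 to 0.76 for Ifitm1, from -0.18 to 0.19 for Ifitm2 and from -0.59 to -0.20 for Ifitm3, each time lowest without Jak1 KO 4 and highest without Jak1 KO 6. The name set values ran from 0.54 to 1.15, from 1.12 to 1.68 and from 1.00 to 1.58, all still called; with the exon length offset that of Ifitm1 was 0.20 and no longer called (adjusted p = 0.294). The interaction ran from -0.27 to 0.72 for Ifitm1, from 0.17 to 1.06 for Ifitm2 and from -0.017 to 0.92 for Ifitm3, lowest without Jak1 KO 4, and with the exon length offset it was -0.24 for Ifitm1 and -0.064 for Ifitm3. The ratio of Ifitm1 to Ifitm3 ran from 0.82 to 1.02 on the log2 scale. Of the interferon list, 26 genes were called lower; the count was 52 with limma-voom, 7 without the set term, 0 in ZL alone and 16 to 30 with 1 library left out (16 without Jak1 KO 2 or Jak1 KO 5, 17 without wt 1). The 58 genes called in all became 126 with DESeq2, 220 with limma-voom, 14 without the set term, 149 in VD alone, 0 in ZL alone and 39 to 77 with 1 library left out. The cause of these changes was not tested. The median name set difference over all genes was 0.20 with TMM, 0.058 with DESeq2's size factors and 0.0925 with upper quartile factors. Same-numbered libraries correlated at 0.043 to 0.67, and 3 of 6 correlated best with their own number. These values cannot show whether the numbers pair the samples. With a replicate block the genotype values were 0.50, 0.0043 and -0.42 for Ifitm1, Ifitm2 and Ifitm3, and 72 genes were called.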
